A study of Mus musculus with 6 samples.

Results

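The genes that carry a cell through G2 and mitosis were measured by RNA sequencing of 6 whole tongue grafts of B16F10, a pigmented mouse melanoma line. The 38 genes were taken by name, as cyclins, kinases, kinesins and kinetochore genes of mitosis. No measured value entered that rule, but the list was made with earlier results of these data known. All 38 were found among the 55487 gene IDs of the count table, and all 38 were among the 15666 genes that passed the filter on low counts. The hosts were immune-competent C57BL/6J mice, with a wild-type (WT) genotype in the labels. Nociceptive nerves that reach the cervical lymph nodes had been labelled 6 weeks before the graft by injecting the nodes with AAV2/retro-Trpv1-mCherry, which carries a fluorescent protein alone, or with AAV2/retro-Trpv1-hM4D(Gi)-mCherry. The latter also encodes hM4D(Gi), an engineered inhibitory receptor. Deschloroclozapine, the drug that activates it, was given 2 times per day for 12 days, and the grafts were then freed of non-tumour tissue. The labels name 3 grafts as controls and 3 as having the nerves inhibited. They call the controls vehicle-treated, whereas the design text describes that drug for the mice in general, so which of these the controls received is unclear. Nothing in the labels states that the 6 grafts came from separate animals or gives their age, so the p-values take in no more than sample-to-sample spread, which may be technical.

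Cells raise these transcripts in late S phase and G2. Cyclin B with the kinase Cdk1 drives entry into mitosis, the kinetochore joins each chromosome to the spindle, and the spindle checkpoint holds back the anaphase-promoting complex until all chromosomes are attached. Because quiescent cells shut these genes off, their summed RNA in a tumour is widely read as a mark of how many cells are cycling. In RNA from a whole graft, fewer cells of a type and less RNA per cell cannot be told apart, and dividing melanoma cells cannot be told apart from dividing host cells.

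Most of these genes share a promoter plan, in which NF-Y binds CCAAT boxes and the MuvB complex, with B-Myb and FoxM1, binds the cell-cycle homology region (CHR), a short element near the start site with the core TTTGAA or, in a variant, TTCGAA. RefSeq promoter windows (GRCm38.p6, 250 bases before to 50 after the start) were at hand for 31 of the 38 genes and were searched on both strands for exact matches. A CCAAT box was found in 24 of 31 (77.4%), against 41.1% of the 27025 genes with a window, and TTTGAA in 23 (74.2%), against 20.2%. TTCGAA was found in 3 (9.68%), against 1.80%. Both a CCAAT box and 1 of the CHR forms were held by 21 (67.7%), against 8.61% of all genes. A CHR form within 50 bases of the start, a distance chosen after the positions were seen, was present in 22 of 31 against 5.29% of all genes. In Birc5, Mad2l1, Nuf2 and Nusap1 these letters were not in the window. These matches describe the sequence and are not measured binding.

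The part of 4 promoters that lies before the start is printed because these genes have the highest level per length, among those described in full below, with both elements in the window. Capitals mark each match to the CCAAT box, the CHR core or its variant, read on either strand, and in Ube2c 2 CCAAT matches on opposite strands overlap. Each run stops before the RefSeq start and before the first base of the gene in GENCODE, whichever comes first. In Plk1 the TTTGAA lies beyond the run, 31 bases after the RefSeq start, and in Ube2c it lies beyond the run too, at -29 bases from that start.
Top2a, chr11:99024190-99024426, minus strand: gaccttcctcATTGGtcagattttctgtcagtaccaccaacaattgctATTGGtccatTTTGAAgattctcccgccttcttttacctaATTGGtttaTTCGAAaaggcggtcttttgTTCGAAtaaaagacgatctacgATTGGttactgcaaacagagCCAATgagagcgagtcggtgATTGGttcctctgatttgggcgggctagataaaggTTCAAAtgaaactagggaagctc
Mki67, chr7:135716380-135716577, minus strand: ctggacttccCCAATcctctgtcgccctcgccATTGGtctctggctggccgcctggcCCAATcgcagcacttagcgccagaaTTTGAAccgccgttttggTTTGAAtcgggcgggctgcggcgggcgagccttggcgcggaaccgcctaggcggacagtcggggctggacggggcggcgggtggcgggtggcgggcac
Plk1, chr7:122159411-122159434, plus strand: atccccgcggCCAATcagcaacgc
Ube2c, chr2:164769691-164769897, plus strand: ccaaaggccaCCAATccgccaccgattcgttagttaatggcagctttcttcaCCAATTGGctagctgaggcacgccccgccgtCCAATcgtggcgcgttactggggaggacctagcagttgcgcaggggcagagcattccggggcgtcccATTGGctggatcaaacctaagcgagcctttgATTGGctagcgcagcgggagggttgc

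**Figure D1:**
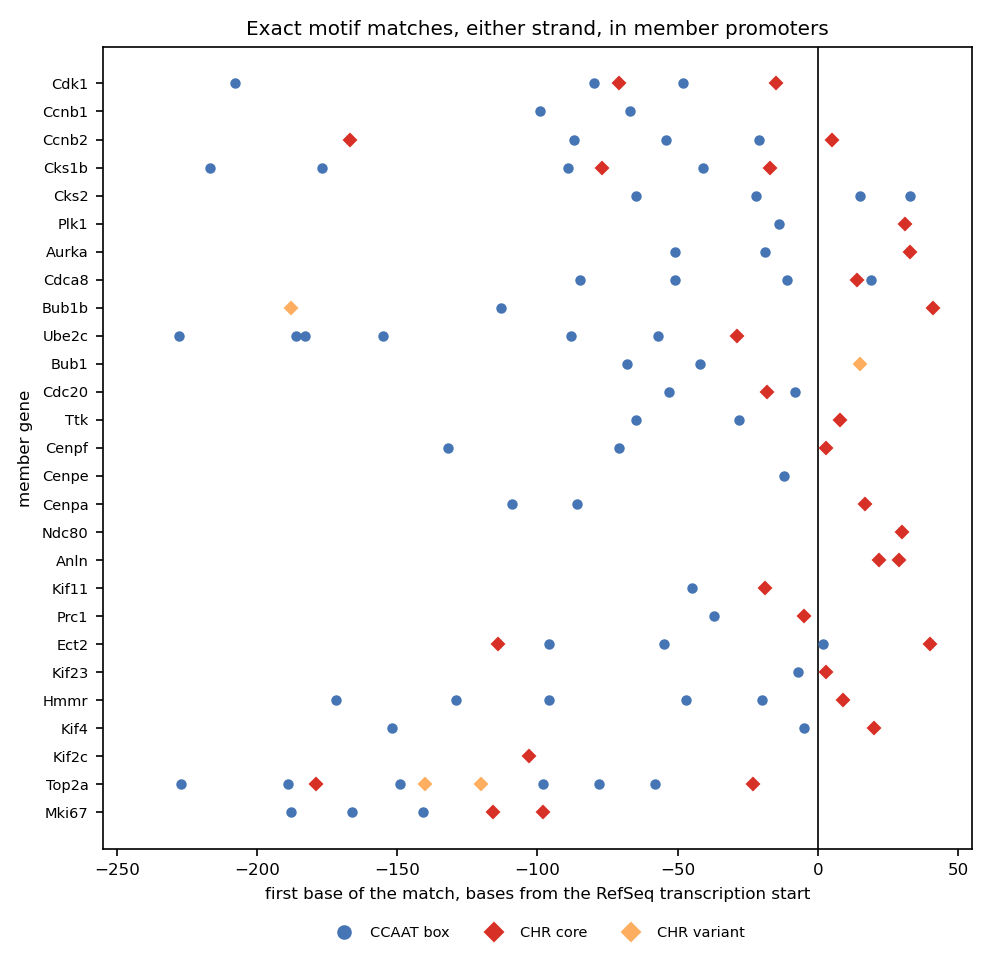
Position of each exact match to the CCAAT box (circles) and to the CHR core or its variant (diamonds) in the 27 genes with any match, in bases from the RefSeq transcription start (x axis), 1 row per gene. In 22 of the 31 genes with a window a CHR form lies within 50 bases of the start, with CCAAT boxes mostly before it.

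None of the 38 genes differed between the grafts with inhibited nerves and the controls at an adjusted p under 0.05. The quasi-likelihood test of edgeR called 0 of 38, against 0.0383% of all genes tested, and DESeq2 and limma-voom also called 0 of 38, against 3.45% of all genes in DESeq2. At an unadjusted edgeR p under 0.05, Ube2c, Nuf2 and Plk1 were higher and no member was lower, 3 of 38 (7.89%), against 8.36% of all genes higher and 7.0% lower. That count was 0 without control 2 or without inhibition 3, 1 without inhibition 1, 2 without control 1 and 5 without control 3 or without inhibition 2. Of the 7715 genes tested whose mean level lay in the members' range, 15.4% had an unadjusted edgeR p under 0.05, 398 higher and 788 lower. The members' median log2 fold change, inhibition over control, was 0.05 (quartiles 0.005 to 0.15), and that of all genes was 0.005 (quartiles -0.13 to 0.19). A positive sign was seen in 29 of 38 members, against 51.0% of all genes and 43.1% of those in the same range of levels.

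In the fit of all 6 grafts with no covariate the intervals were narrow. All 38 log2 fold changes lay between -0.13 and 0.25. A change of 0.25 or less in either direction was seen in 66.5% of all genes and in 85.7% of those in the same range of levels. The 95% intervals of all 38 lay within 1.5-fold either way, and the outermost bounds were 0.774-fold for Cdc25c and 1.40-fold for Ube2c. Standard errors on the log2 scale were 0.07 to 0.11, with a median of 0.09, equal to that of genes in the same range of levels (0.09) at this rounding and below that of all genes (0.14). When a covariate for the grafts' muscle content was added, the standard errors were 0.12 to 0.18 and the log2 fold changes ran from -0.10 to 0.39, with 28 of 38 at 0.25 or less in size. The counts behind these values ran from 270 to 12321 per gene and library. Library totals were between 14477277 and 20972494 counts.

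**Figure D2:**
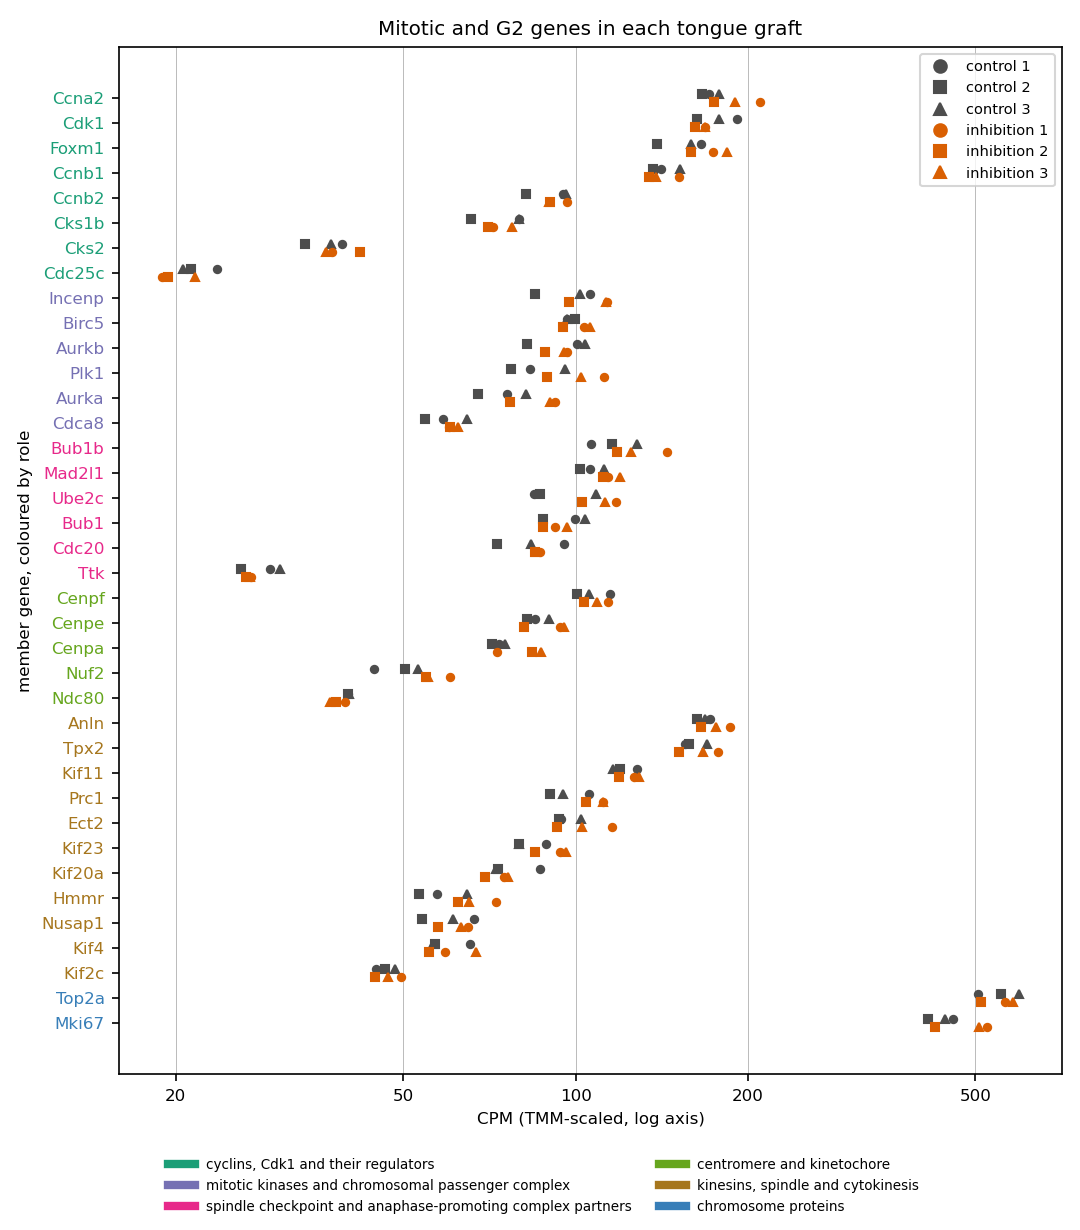
Level of the 38 genes in each of the 6 grafts, in counts scaled to library size (CPM, log axis), with 1 row per gene, names coloured by role, controls in grey and inhibition grafts in orange. The groups part without overlap only in Nuf2 (inhibition higher) and Ndc80 (inhibition lower).

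Cyclins, Cdk1 and their regulators were split, 4 with a positive and 4 with a negative log2 fold change. In counts scaled to library size (CPM), Ccnb1, cyclin B1, stood at 141, 137 and 152 in the controls and at 152, 134 and 138 CPM in the inhibition grafts, a log2 fold change of -0.02 (95% interval -0.19 to 0.15; edgeR adjusted p = 0.922). The groups covered the same range. Cdk1, the kinase that cyclin B activates, stood at 192, 163 and 178 CPM in controls and 168, 162 and 168 CPM under inhibition (log2 fold change -0.10, interval -0.27 to 0.08; edgeR adjusted p = 0.563). Ccna2, cyclin A2, which acts from S phase to early mitosis, stood at 171, 166 and 178 CPM and at 210, 174 and 190 CPM (0.16, interval -0.03 to 0.34; edgeR adjusted p = 0.395). Inhibition 1 held the highest Ccna2 value, and control 3 lay above inhibition 2. Foxm1, the transcription factor that raises many genes of this group, stood at 166, 139 and 159 CPM and at 174, 159 and 184 CPM (0.16, interval -0.04 to 0.36; edgeR adjusted p = 0.422). Ccnb2, the second mitotic cyclin B, and the Cdk-binding subunits Cks1b and Cks2 had log2 fold changes of 0.02, -0.03 and 0.08. Cdc25c, the phosphatase that activates Cdk1, had the lowest value of the members (-0.13).

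Mitotic kinases and the chromosomal passenger complex had 5 positive values of 6. Plk1, a kinase of centrosome maturation and mitotic entry, stood at 83.1, 77.2 and 96.0 CPM in controls and 112, 89.2 and 102 CPM under inhibition. Control 3 lay above inhibition 2, and the log2 fold change was 0.24 (SE 0.11; edgeR adjusted p = 0.325). Aurka, the spindle pole kinase, stood at 75.8, 67.5 and 81.8 CPM and at 92.2, 76.8 and 90.3 CPM (0.20, SE 0.10; edgeR adjusted p = 0.359). Incenp, the scaffold of the passenger complex, stood at 106, 84.9 and 102 CPM and at 113, 97.4 and 113 CPM (0.15, SE 0.10; edgeR adjusted p = 0.498). In all 3 genes the lowest library of each group was the 1 numbered 2. The other passenger subunits were nearer to 0, with log2 fold changes of -0.03 for the kinase Aurkb, 0.04 for Cdca8 (borealin) and 0.06 for Birc5 (survivin).

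Spindle checkpoint genes and partners of the anaphase-promoting complex had 4 positive values of 6. Ube2c, the ubiquitin-conjugating enzyme of that complex, had the smallest p of the 38. It stood at 84.4, 86.7 and 109 CPM in controls and at 117, 103 and 113 CPM under inhibition, so that control 3 overlapped the inhibition grafts (log2 fold change 0.25, SE 0.11; unadjusted p = 0.0409, edgeR adjusted p = 0.305). Ube2c (ENSMUSG00000001403) lies on chromosome 2 from 164769898 to 164778822 on GRCm38 and is protein-coding. Its annotated exons share 592 bases, 22.8% of their length, with exons of Tnnc2 on the opposite strand, the fast-muscle troponin C gene, and these are 74.0% of the exon bases of Tnnc2. Tnnc2 had 0, 0 and 0 counts in controls and 1, 2 and 0 under inhibition, while its partner Tnni2, fast-muscle troponin I, had 524 to 2356 counts in every library. Strand use in the counting is not given in the sources used here, so reads of the shared bases cannot be assigned. Tnni2 counts were 524, 1178 and 832 in controls and 1858, 2356 and 1578 under inhibition. Ube2c counts were 1399, 1332 and 2243 in controls and 1676, 2004 and 2363 under inhibition. Whether reads of Tnnc2 took part in the Ube2c value was not tested.

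Bub1b, a checkpoint protein that restrains Cdc20, stood at 106, 116 and 128 CPM in controls and 144, 118 and 125 CPM under inhibition (log2 fold change 0.14, interval -0.08 to 0.36; edgeR adjusted p = 0.500). Mad2l1, which binds Cdc20 at unattached kinetochores, stood at 106, 102 and 112 CPM and at 114, 112 and 119 CPM (0.11, interval -0.05 to 0.27; edgeR adjusted p = 0.467). The highest Mad2l1 control, control 3, lay just above the lowest inhibition graft. The checkpoint kinases Bub1 and Ttk were at -0.08 and -0.09, and Cdc20, the activator of the anaphase-promoting complex, was at 0.02.

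Of 5 centromere and kinetochore genes 4 were positive. Nuf2, a subunit of the Ndc80 complex that grips microtubules, stood at 44.4, 50.2 and 53.0 CPM in controls and at 60.3, 54.7 and 55.3 CPM under inhibition (log2 fold change 0.20, SE 0.09; unadjusted p = 0.0480, edgeR adjusted p = 0.320). Its inhibition grafts all lay above its controls. Ndc80, the partner of Nuf2 in the same complex, stood at 39.9, 40.1 and 40.1 CPM in controls and 39.4, 38.2 and 37.3 CPM under inhibition. Its log2 fold change was -0.07, with an interval that spans 0 (-0.24 to 0.11, SE 0.08, edgeR adjusted p = 0.706). Nuf2 and Ndc80 were the only members whose groups did not overlap, 1 higher and 1 lower, against 10.2% of all genes higher and 11.0% lower. Cenpa, the histone variant that marks centromeres, stood at 73.6, 71.4 and 75.4 CPM and at 73.0, 84.0 and 87.1 CPM (0.15, interval -0.04 to 0.33; edgeR adjusted p = 0.417). The kinetochore motor Cenpe stood at 85.0, 82.2 and 89.9 CPM and at 94.1, 81.2 and 95.4 CPM (0.07, interval -0.11 to 0.26; edgeR adjusted p = 0.695). In Cenpa inhibition 1, and in Cenpe inhibition 2, lay below at least 1 control. Cenpf, a large kinetochore protein of G2, was at 0.02.

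Kinesins, spindle and cytokinesis genes were positive in 10 of 11. Prc1, which bundles microtubules of the central spindle, stood at 106, 90.2 and 95.1 CPM in controls and at 111, 104 and 112 CPM under inhibition (log2 fold change 0.17, SE 0.08; edgeR adjusted p = 0.340). Only control 1 lay above any inhibition graft. Hmmr, a spindle-associated hyaluronan receptor, stood at 57.3, 53.2 and 64.6 CPM and at 72.5, 62.4 and 65.0 CPM (0.19, SE 0.10; edgeR adjusted p = 0.378), and Kif23, the kinesin of centralspindlin, at 88.7, 79.6 and 79.7 CPM and at 94.1, 85.0 and 96.1 CPM (0.15, SE 0.08; edgeR adjusted p = 0.398). In each of these a single control lay above the lowest inhibition graft. The other values were 0.10 for the cytokinesis factor Ect2, 0.07 for anillin (Anln) and 0.04 for the spindle motor Kif11 and for Tpx2, which activates Aurka. Nusap1, Kif4 and Kif2c were between 0.01 and 0.03, and Kif20a, a kinesin of cytokinesis, was at -0.08.

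Chromosome proteins gave the highest CPM of the group. Top2a, the topoisomerase that untangles sister chromatids, stood at 505, 554 and 596 CPM in controls and 564, 512 and 582 CPM under inhibition, a log2 fold change of 0.002 (interval -0.19 to 0.19; edgeR adjusted p = 0.994). Mki67, whose protein Ki-67 coats mitotic chromosomes and is the usual stain for dividing cells, stood at 458, 414 and 443 CPM and at 524, 425 and 506 CPM. Its log2 fold change was 0.15 (interval -0.06 to 0.35; edgeR adjusted p = 0.459), with inhibition 2 below 2 of the 3 controls. On GRCm38, Top2a (ENSMUSG00000020914) lies on chromosome 11 from 98992943 to 99024189 and Mki67 (ENSMUSG00000031004) on chromosome 7 from 135689784 to 135716361.

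**Figure D3:**
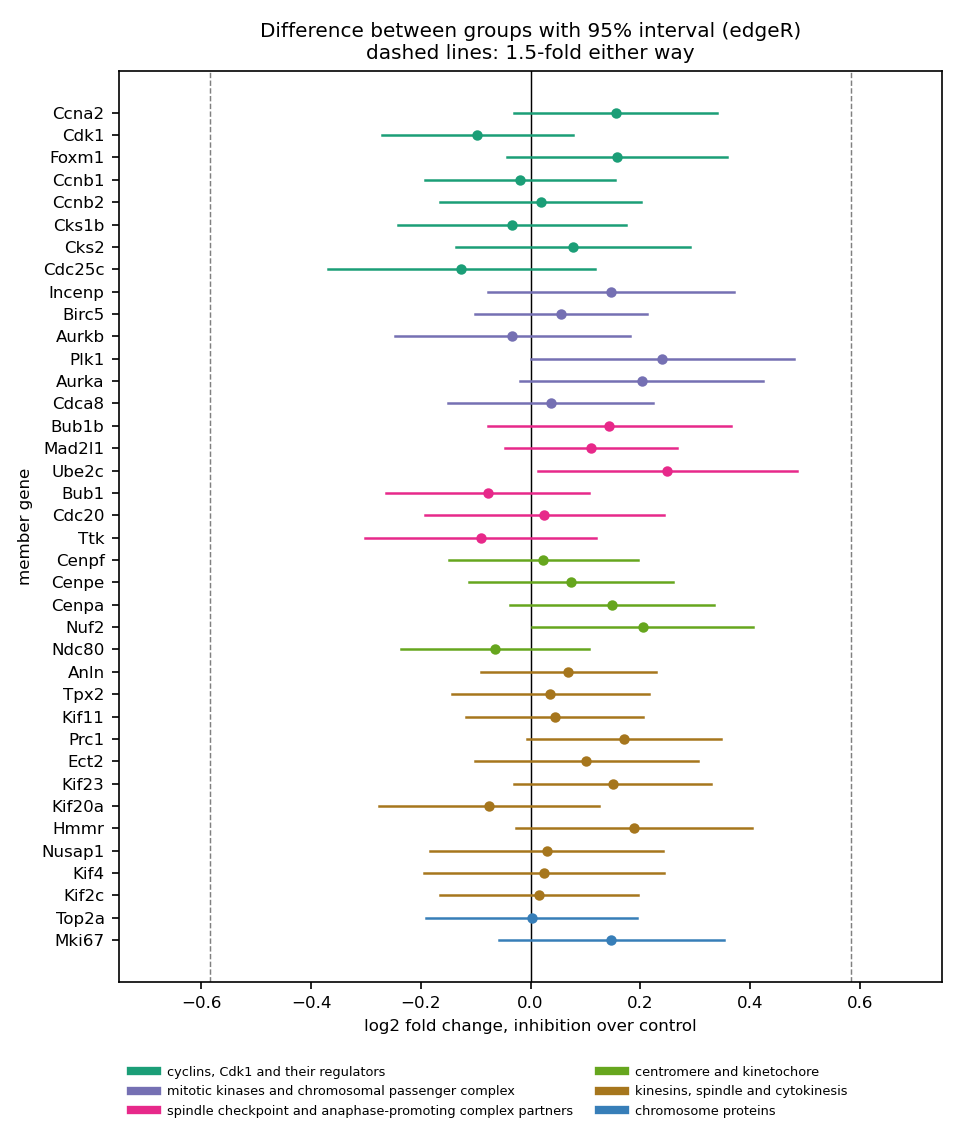
Log2 fold change of each of the 38 genes, inhibition over control (x axis), as a point with its 95% interval from edgeR, coloured by role, with dashed lines at 1.5-fold either way. All 38 intervals lie between the dashed lines, and the points lie between -0.13 and 0.25.

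Per kilobase of annotated exon, averaged over the 6 grafts, the levels ran from 4.25 to 65.8 CPM per kb with a median of 20.3. Highest were Cks1b (65.8), Top2a (61.3), Ccnb2 (59.9) and Cks2 (54.5), and lowest were Cdc25c (4.25), Ttk (5.63), Ndc80 (6.03) and Cenpf (6.99). Neighbours in this order mostly differed by less than their spread over grafts: Cks1b ran from 58.3 to 70.7 CPM per kb and Top2a from 56.0 to 66.2. Exon length was the union over all annotated transcripts, which lowers the value of a gene with long minor transcripts.

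The members varied between grafts about as much as other genes of their level: the median SD within a group was 0.10 on the log2 scale, against 0.11 for those genes. For a single gene the highest graft was 1.08 to 1.45 times the lowest, with a median of 1.22. The mean log2 CPM of the 38 genes, less the mean of the controls, was 0.03, -0.08 and 0.05 in controls 1, 2 and 3 and 0.11, -0.01 and 0.10 in inhibition 1, 2 and 3. Control 2 was the lowest graft for 21 of 38 genes and the highest for 0, and inhibition 2 was the lowest for 10. Inhibition 1 was the highest for 14, inhibition 3 for 9 and control 3 for 8. The range within each group was wider than the distance between the group means, and controls 1 and 3 lay above inhibition 2. Without control 2 the members' median log2 fold change was 0.01, with 21 of 38 positive. Without inhibition 3 it was 0.02 and without inhibition 1 it was 0.03, whereas without inhibition 2 or without control 1 it was 0.08. With both libraries numbered 2 left out, an alternative chosen after these levels were seen, it was 0.06 with 24 of 38 positive, and edgeR called 0 members, with 0 at an unadjusted p under 0.05.

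Genes of other tissues moved between the same grafts over a much wider range. Melanocyte markers were present in every graft. The summed level of the 11 genes was 16786, 24563 and 24954 CPM in controls 1, 2 and 3 and 29192, 24907 and 23805 CPM in inhibition 1, 2 and 3. Only control 1 lay below the inhibition grafts, and controls 2 and 3 lay within their range. None of the 11 was at 0, and their median log2 fold change was 0.10 (Pmel 0.27, Tyrp1 0.37, Dct 0.10). Skeletal muscle markers, 18 of 19 tested and all 18 positive, summed to 899 to 2083 CPM in controls and 2476 to 4402 CPM under inhibition (median log2 fold change 1.41; Acta1 1.11, Ckm 1.28). EdgeR called 0 of these 18 and DESeq2 8, Acta1 among them (adjusted p = 0.00892), against 3.45% of all genes in DESeq2. Squamous epithelium markers, 15 of 16 tested, summed to 1372 to 2934 CPM and 1702 to 5094 CPM (median 1.08; Krt5 0.43), with 0 called by edgeR and 2 by DESeq2. Fibroblast markers, which mark host cells that can divide, were positive in 10 of 10 (median 0.68; 0 called by edgeR, 6 by DESeq2), and endothelial markers in 8 of 8 (median 0.47; 0 called by edgeR, 2 by DESeq2). The 9 macrophage markers summed to 158 to 269 CPM and 240 to 275 CPM, with 0 called by edgeR and 1 by DESeq2. By mean log2 level, the library numbered 2 in each group had the highest squamous and macrophage values and the lowest level of the mitotic genes. Neutrophil markers, 8 of 9 tested and all 8 negative, summed to 33.5 to 93.2 CPM in controls and 6.51 to 27.0 CPM under inhibition. Their median log2 fold change was -2.51, with 0 called by edgeR and 3 by DESeq2. Ly6g, the defining surface marker of neutrophils, had at most 1 count in any graft. The part of these tissues in the members' values was not tested. Less the mean of the controls, the muscle markers' mean log2 level was -0.63, 0.84 and -0.21 in controls 1, 2 and 3. Under inhibition it was 1.90, 1.76 and 0.78. A covariate for it thus partly follows the group, and muscle content and group cannot be fully told apart in that fit. With the muscle covariate the members' median was 0.15 with 35 of 38 positive, against 49.5% of all genes in the same fit. EdgeR called 0 of them in that fit and 0.0% of all genes, and 4 had an unadjusted p under 0.05, all positive (Foxm1 0.39, Incenp 0.39, Aurka 0.37 and Prc1 0.32), against 1.26% of all genes higher and 1.92% lower.

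**Figure D4:**
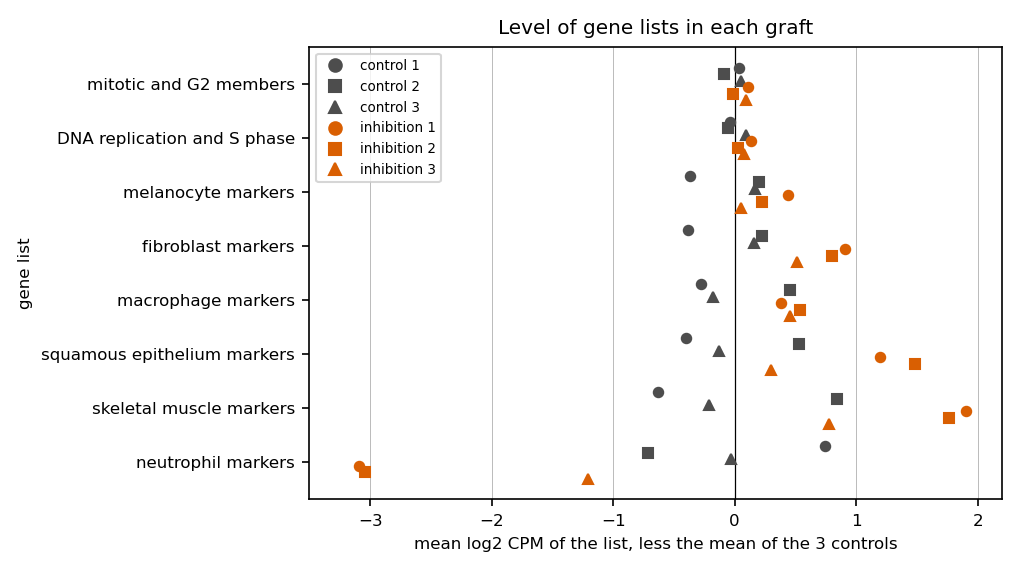
Mean log2 CPM of each gene list in each graft, less the mean of the 3 controls (x axis), for the 38 mitotic and G2 genes, S-phase genes and 6 tissue marker lists; symbols give the replicate number and orange marks inhibition. The mitotic genes stay between -0.08 and 0.11, while muscle markers run from -0.63 to 1.90.

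Other genes of the mitotic program, listed by function, were also without a call: edgeR called 0 genes in each of the following lists, and DESeq2 called 0 in each. The counts given for these lists, the G1 and S-phase lists included, stand beside shares over all genes tested. Of all genes, 51.0% were positive, and at an unadjusted edgeR p under 0.05 8.36% were higher and 7.0% lower. Of 36 further kinetochore and centromere genes 23 were positive (median log2 fold change 0.06), and 3, all higher, had an unadjusted p under 0.05. Among them were the centromere subunits Cenpt (0.33) and Cenpm (0.26), with edgeR adjusted p of 0.247 and 0.294. Of 34 further spindle and cytokinesis genes 20 were positive (median 0.03; an unadjusted p under 0.05 in 1 each way). Haus2, a subunit of the augmin complex that branches spindle microtubules, stood at 31.3, 30.1 and 26.7 CPM in controls and 23.9, 22.4 and 23.9 CPM under inhibition (-0.33; edgeR adjusted p = 0.204), and Kif24 and Ckap2l had 0.27 and 0.24. Of 23 further G2 regulators 14 were positive (median 0.03; 0 at an unadjusted p under 0.05), and the smallest p belonged to Cdc25a (0.19), Gas2l3 (-0.15) and Cdca2 (0.18).

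Of 21 condensin and cohesin genes 16 were positive (median 0.03; an unadjusted p under 0.05 in 2, both higher, against 8.36% of all genes higher). Espl1, the separase that cuts cohesin at anaphase, stood at 55.3, 55.6 and 63.6 CPM in controls and 67.8, 66.9 and 67.4 CPM under inhibition (0.21; edgeR adjusted p = 0.266). The cohesin loader Nipbl had 0.16 and the condensin subunit Ncapg2 -0.14. The anaphase-promoting complex was near even, with 8 of 17 positive (median -0.01; an unadjusted p under 0.05 in 1 higher and 3 lower). Its subunits Anapc4 and Anapc7 had -0.24 and -0.22, and its inhibitor Fbxo5, known as Emi1, had 0.24, with edgeR adjusted p of 0.248, 0.249 and 0.256.

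Of 16 transcription factors of the G2 program 12 were positive (median 0.10; 3 with an unadjusted p under 0.05, all higher). E2f4, which represses these genes in quiescent cells, stood at 48.8, 61.4 and 54.9 CPM in controls and 76.0, 60.9 and 75.2 CPM under inhibition (0.36; edgeR adjusted p = 0.220). E2f8, a repressor that rises in late S phase, stood at 28.1, 23.9 and 34.8 CPM and at 43.7, 35.5 and 38.2 CPM (0.43; edgeR adjusted p = 0.227), so that its groups did not overlap. Nfyc, a subunit of the CCAAT-binding factor, had 0.27 (edgeR adjusted p = 0.275). With no filter on low counts edgeR called E2f4 (0.35, adjusted p = 0.0127) and E2f8 (0.42, adjusted p = 0.00988). That fit called 1187 genes in all, against 6 with the filter.

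Regulators of G1, upstream of the mitotic genes, had the widest single values. Of 20 listed, 19 were tested and 11 were positive (median 0.10; an unadjusted p under 0.05 in 1 higher and 2 lower). Cdkn1a, the Cdk inhibitor p21, stood at 392, 186 and 242 CPM in controls and 118, 134 and 196 CPM under inhibition (log2 fold change -0.87, SE 0.34; edgeR adjusted p = 0.320). Control 2 lay below inhibition 3. Ccnd2, cyclin D2, stood at 618, 584 and 590 CPM and at 487, 479 and 542 CPM (-0.25, SE 0.07; edgeR adjusted p = 0.204), with all inhibition grafts below all controls. Cdkn2b, the inhibitor p15, rested on few reads, with 1, 6 and 5 counts in controls and 14, 19 and 12 under inhibition (1.83, SE 0.57; edgeR adjusted p = 0.216). Cdkn2a had 0 counts in 5 grafts and 2 in inhibition 3 and was not tested. With the muscle covariate, which partly follows the group, Cdkn1a was at 0.11. With no filter on low counts edgeR called 1 gene of the list, Myc, a driver of G1 progression (0.32, adjusted p = 0.0174). That fit called 1187 genes in all, against 6 with the filter.

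DNA replication and S-phase genes, the phase before G2, were the list nearest in kind. Of 36, 25 were positive, with a median of 0.08 (an unadjusted p under 0.05 in 3 higher and 1 lower), beside 29 of 38 and 0.05 for the mitotic genes. Their level in controls 1, 2 and 3 was -0.04, -0.05 and 0.09 and in the inhibition grafts 0.13, 0.03 and 0.08. Pold1, a DNA polymerase subunit, had 0.23, the helicase subunit Mcm2 0.23 and the clamp loader subunit Rfc4 -0.30, with edgeR adjusted p of 0.253, 0.305 and 0.266. Both a CCAAT box and a CHR form were in 5 of 29 S-phase promoters (17.2%), beside 21 of 31 for the mitotic genes. The further spindle and kinetochore lists had 15 of 29 (51.7%) and 12 of 31 (38.7%).

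**Figure D5:**
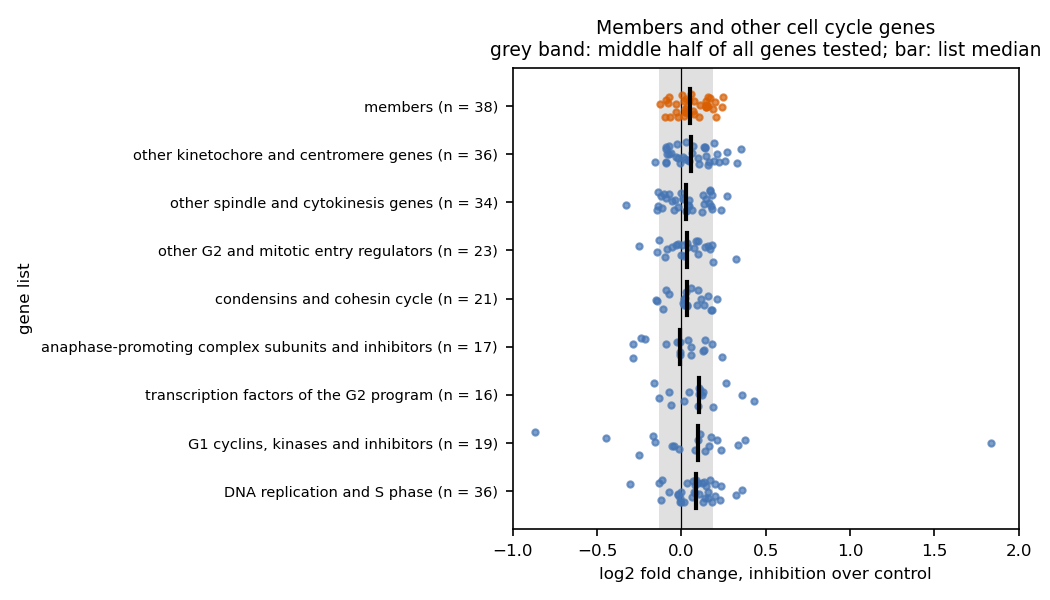
Log2 fold change, inhibition over control (x axis), of every tested gene in the 38 mitotic and G2 genes (orange) and 8 further cell cycle lists (blue), with the list median as a bar and the quartiles of all 15666 genes as a grey band from -0.13 to 0.19. The list medians lie between -0.01 and 0.10, and Cdkn1a and Cdkn2b of the G1 list lie farthest out.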

How the data were processed

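The authors deposited 1 table of raw read counts per Ensembl gene, whole numbers with no normalization visible in the values. HISAT2 2.0 and mm10 are named per the submitters' processing notes; the counter, annotation, filters and strand setting are not given in the sources used here. Columns were matched to samples by name (those of the treated group speak of nociceptive denervation), and 0 columns were unused. Of 55487 gene IDs 55141 could be paired with a symbol, and 0.0575% of reads fell on the remaining 346. H2ax was matched under the older symbol H2afx. Lengths and positions are from GENCODE M21 on GRCm38, promoters from RefSeq on GRCm38.p6. Chi-square per degree of freedom between libraries of 1 group was 8.30 to 20.0, above counting noise, which does not show that grafts came from separate animals.

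Genes were kept with filterByExpr (count minimum 10, total minimum 15), scaled with TMM, and compared over all 6 libraries with no covariate in edgeR 4.0.16 (quasi-likelihood, robust, R 4.3.3, Benjamini-Hochberg over all genes tested, called under 0.05). The standard error is the absolute log2 fold change over the square root of F, and 95% intervals use the total degrees of freedom. Levels are TMM-scaled CPM; list levels are mean log2 CPM (prior count 2). The fit was also run on simulated data, with set changes larger than that of any member. That run does not bear on changes of the members' size.

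The members, lists and tests were chosen with earlier results of these data known. Described in full were, in each role group, the 3 genes with the smallest p, and Mki67, Top2a, Ccnb1, Cdk1 and Foxm1; in each further list, the 3 with the smallest p; and of tissue genes Pmel, Tyrp1, Dct, Acta1, Ckm and Krt5. One gene that this rule names is not reported here. Other members are given by value, except that Ndc80, whose groups did not overlap, was given in full after its values were seen. Tnnc2, Tnni2, Myc, Gzmb, Ly6g, Cd79a and Cdkn2a were also named after their values were seen. Alternatives were RLE and upper-quartile factors, TMM without tongue tissue genes, no filter and a stricter filter (all libraries of either group at 1 CPM), DESeq2 1.42.0, limma-voom 3.58.1, a muscle covariate, a block for replicate number and each library left out.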

Additional observations from a re-analysis of the deposited data

How the results depend on the processing

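No fit run (edgeR, DESeq2 or limma-voom, each alternative) called any of the 38 members, and the lowest adjusted p of any member was 0.150 (Ube2c with no filter on low counts). Over all genes the count of calls, 6 here, was 1187 with no filter, 541 with DESeq2, 0 with limma-voom, 14 with the replicate block, 0 with the muscle covariate and 0 to 217 with libraries left out. Whether the replicate numbers pair the grafts is not settled by these values. Same-numbered deviations correlated at -0.18, 0.33 and 0.09. Controls 2 and 3 correlated best with the inhibition graft of their own number, and control 1 with inhibition 3. The block changed no member's call (median 0.05). With no filter edgeR called 2 of the G2 transcription factors, E2f4 (0.35, adjusted p = 0.0127) and E2f8 (0.42, 0.00988), and 1 G1 gene, Myc (0.32, 0.0174). Under the muscle covariate the medians were 0.15 for the members, 0.14 for further kinetochore genes, 0.17 for further spindle genes, 0.18 for further G2 regulators and 0.10 for condensins and cohesin; with libraries left out the medians ran from 0.022 to 0.12 for further kinetochore genes, 0.018 to 0.11 for G1 genes, -0.017 to 0.069 for further G2 regulators, -0.016 to 0.051 for further spindle genes, -0.033 to 0.0098 for the anaphase-promoting complex and 0.0093 to 0.064 for condensins and cohesin. The cause was not tested.

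Some signs turned. Top2a was -0.00044 with RLE factors, -0.0061 with TMM without tongue genes, -0.0089 with no filter, -0.0017 with the stricter filter and -0.00050 with DESeq2. With the muscle covariate, under which values far from 0 turned as well, Cdk1 was 0.058, Cks1b 0.22, Cdc25c 0.038, Aurkb 0.19, Bub1 0.11, Ttk 0.033, Kif20a 0.084, Kif2c -0.012, Cdkn1a 0.11, Tyrp1 -0.13, Dct -0.052, Pmel -0.18, Ckm -0.40 and Krt5 -0.15. Ckm is among the muscle markers averaged into that covariate, so its turn is partly built in. With libraries left out the range was -0.14 to 0.0055 for Cks1b, -0.13 to 0.0050 for Kif20a, -0.033 to 0.043 for Kif2c, -0.066 to 0.056 for Top2a, -0.00030 to 0.17 for Dct, -0.068 to 0.054 for Ccnb2, -0.036 to 0.099 for Cdca8, -0.083 to 0.12 for Cdc20, -0.036 to 0.070 for Cenpf, -0.069 to 0.089 for Kif4, -0.062 to 0.093 for Nusap1, -0.081 to 0.022 for Ccnb1, -0.15 to 0.024 for Aurkb, -0.026 to 0.086 for Tpx2 and -0.057 to 0.12 for Cks2. In the narrower promoter window, 100 bases before to 50 after the start, both elements were in 61.3% of the members' promoters against 2.40% of all genes. The 95% intervals given are per gene and not adjusted for the number of genes tested. Those of Ube2c, Nuf2 and Plk1 lay above 0, yet their edgeR adjusted p were 0.305, 0.320 and 0.325. With 3 grafts a group, the smallest difference that an adjusted p under 0.05 could detect was not tested.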

Other observations

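Annotated exons of 12 of the 38 genes overlap those of another gene, and for 7 the other gene holds over 1% of the member's count. Cdc20 shares 53 exon bases with Elovl1, Kif20a shares 1271 with Cdc23, itself a subunit of the anaphase-promoting complex, Kif4 shares 832 with Pdzd11, and Ccna2 shares 510 with Exosc9, all on opposite strands. Cdca8, Nusap1 and Prc1 likewise share 232, 172 and 911 with 9930104L06Rik, Oip5 and Rccd1. The 1% cut passes over Ube2c, Cdc25c and Plk1, which share 592, 623 and 156 with Tnnc2, Gm3550 and Gm44985, also on opposite strands. Counts of these 10 members are therefore uncertain where strand was not used in counting. The processed pseudogenes Ccnb1-ps and Ccnb2-ps held 148 and 299 counts over the 6 libraries.

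Lymphocytes, which divide when activated, left few reads: none of the 10 T and NK cell markers passed the count filter, and Gzmb, a granzyme of cytotoxic cells, had 51 counts in control 2 and 3 to 11 in the other 5 grafts. Of 6 B and plasma cell markers 1 passed, Cd79a.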
